A study of Mus musculus with 6 samples.

Results

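The Notch pathway was followed in M0505 and STOSE cells through 10 genes, namely the receptors *Notch1*, *Notch2*, *Notch3* and *Notch4*, the ligands *Jag1*, *Jag2* and *Dll1*, and the target factors *Hes1*, *Hey1* and *Hey2*. The genes were chosen by symbol, with earlier results of these data known. All 10 were found among the 20405 genes of the array, each with 1 probe set. M0505 is a line of mouse ovarian surface epithelial (OSE) cells from the FVB/N strain and was taken at early passage, and STOSE is the line that arose when M0505 cells transformed spontaneously in long-term culture. Both were grown in the same medium for murine OSE cells, which contains EGF, and neither carried an introduced gene or received a treatment. RNA from 3 biological replicates of each line was hybridized to Affymetrix Mouse Gene 1.0 ST arrays. All STOSE samples stem from a single transformed line, both lines are aneuploid by the karyotypes of the study, and the labels do not say whether the replicates were separate cultures, so that the p-values measure the spread between these 6 arrays only.

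In canonical Notch signaling, a Jagged or Delta-like ligand on the surface of a cell binds a Notch receptor on its neighbor, and the receptor is then cut by an ADAM protease and by the γ-secretase complex. The released intracellular domain enters the nucleus, joins the DNA-binding protein RBPJ and a Mastermind coactivator, and turns on genes of the HES and HEY families, which encode basic helix-loop-helix repressors. In the ovary the pathway is known for communication between germ cells and granulosa cells and for the growth of blood vessels. Serrate-type ligands are encoded by the Jagged genes and Delta-type ligands by the Dll genes.

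*Hey2*, the target factor called lower in STOSE cells, has sequences at its promoter that match the core letters bound by RBPJ, and the promoter is shown for that reason. It runs from 250 bases before the start of the gene to 10 after it on the minus strand of chr10:30842774-30843033 (RefSeq, GRCm38.p6). Capitals mark matches to GTGGGAA, which includes the shorter TGGGAA, on either strand.

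*Hey2* promoter: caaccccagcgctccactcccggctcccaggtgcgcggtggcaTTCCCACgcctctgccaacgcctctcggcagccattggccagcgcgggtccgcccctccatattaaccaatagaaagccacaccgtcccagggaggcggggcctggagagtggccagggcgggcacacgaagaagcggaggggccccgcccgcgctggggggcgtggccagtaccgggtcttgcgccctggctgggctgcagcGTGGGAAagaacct

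The upstream match lies at positions -207 to -201 on the opposite strand, as TTCCCAC, and the other spans the start of the gene, from -4 to 3. Promoter windows of 300 bases were at hand for 8 of the 10 genes, and *Hes1* and *Hey1* had none. Among the 8, *Hey2* was the 1 gene with a match to either motif. Of 32851 mouse promoter windows of the same length, 25.6% held TGGGAA and 6.38% held GTGGGAA on either strand, so a match is a description of the letters and not of binding.

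To determine which parts of the pathway differed between the lines, expression was compared gene by gene with limma over all 20405 genes, and a gene was called changed at a Benjamini-Hochberg adjusted p under 0.05 and at least a 2-fold difference. All values below are robust multi-array average (RMA) values of a probe set on the log2 scale, and fold changes are STOSE relative to M0505. RMA values are not scaled to transcript length, and they were therefore compared between lines and not between genes. RNA of a whole culture was measured, so that fewer cells with a transcript and less transcript per cell cannot be told apart.

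Of the 10 genes, *Notch1*, *Notch2*, *Jag1* and *Hes1* were called higher in STOSE cells and *Hey2* was called lower. The calls for *Jag1* and *Hes1* depended on single arrays. Over all genes, 4.9% were called higher and 7.59% lower. By the adjusted p alone 5 of the 10 were higher and 3 lower, against 31.6% and 24.8% of all genes. The values of the lines did not overlap for 7 of the 10, which is close to the 64.6% found over all genes. The median log2 fold change was 0.15 for the 10 genes and 0.08 for all genes.

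**Figure D1:**
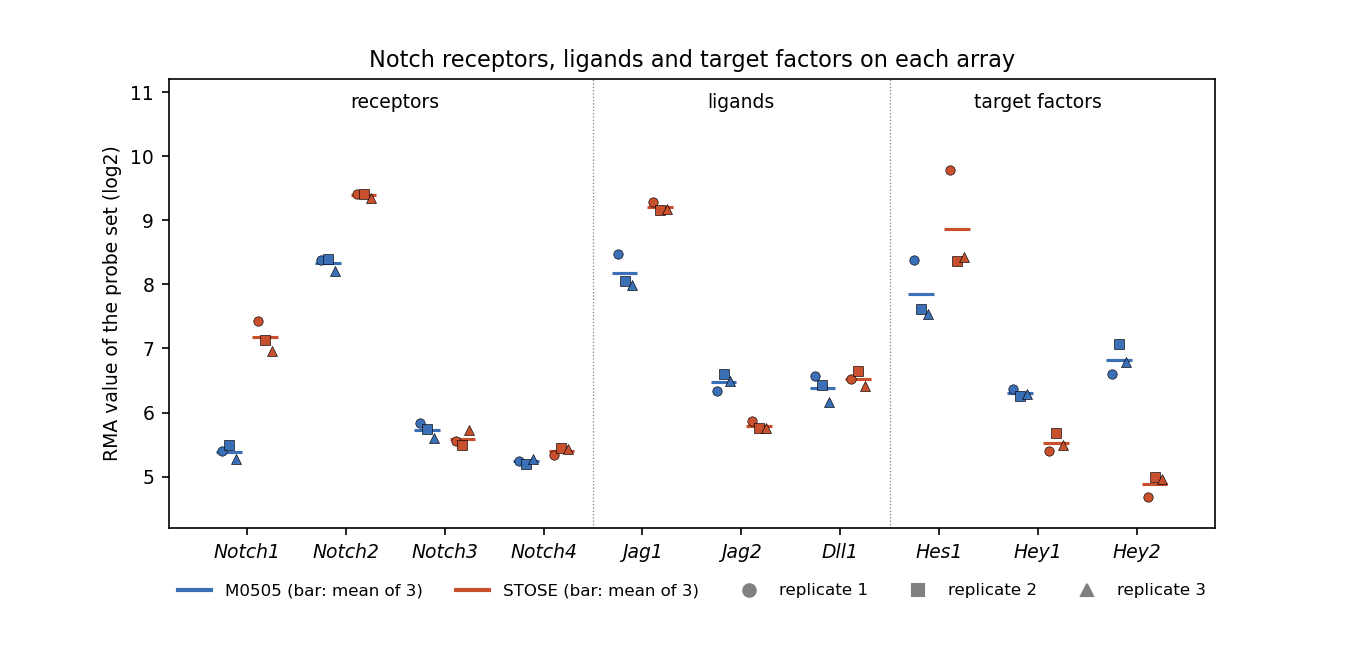
RMA value (log2) of each Notch gene on each of the 6 arrays, with M0505 in blue, STOSE in red, the symbol giving the replicate and the bar the mean of 3. *Notch1*, *Notch2*, *Jag1*, *Jag2*, *Hey1* and *Hey2* separate the lines clearly, while in *Hes1* replicate 1 stands above the other two in both lines.

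Of the receptors, *Notch1* and *Notch2* were called higher and *Notch3* and *Notch4* were not called. *Notch1* had log2 values of 5.40, 5.49 and 5.28 in the M0505 replicates and of 7.43, 7.13 and 6.97 in the STOSE replicates. Every STOSE array lay above every M0505 array. *Notch1* rose 3.45-fold, from 5.39 ± 0.10 (SD, n = 3) to 7.18 ± 0.23 (SD, n = 3) (log2 fold change 1.79 ± 0.12 SE, adjusted p = 3.86e-06 by limma). It ranked 248 by fold change among the 1000 genes called higher, and leaving out any single array kept the log2 fold change between 1.66 and 1.89. The M0505 mean of *Notch1* was dim, below both line means of *Notch3*. Whether the signal follows the transcript level there was not tested, so the 3.45-fold rise is one of array signal.

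*Notch2*, which encodes a receptor of the same domain plan, had values of 8.38, 8.39 and 8.21 in M0505 cells and of 9.41, 9.42 and 9.35 in STOSE cells. The replicates of each line lay close together and the lines did not overlap. The rise was 2.09-fold (log2 fold change 1.07 ± 0.07 SE, adjusted p = 3.47e-06 by limma), near the 2-fold threshold, and its call held without any single array, with a lowest value of 1.01. The within-array difference of *Notch1* minus *Notch2* was on average 0.72 higher in STOSE than in M0505 arrays on the log2 scale (standard error 0.12). With *Notch1* dim in M0505 cells, this is a comparison of array signals only.

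*Notch3*, a receptor best known from pericytes and vascular smooth muscle, had values of 5.84, 5.74 and 5.61 in M0505 cells and of 5.55, 5.50 and 5.72 in STOSE cells, and the lines overlapped. Its log2 fold change was -0.14 with a 95% interval from -0.33 to 0.06 (limma adjusted p = 0.196), and its sign turned to 0.06 when each array was centred on its median over genes. *Notch4*, the receptor associated with endothelium, had values of 5.25, 5.19 and 5.28 against 5.34, 5.45 and 5.43. The STOSE arrays were all higher, but by a small amount, with a log2 fold change of 0.17 (95% interval 0.03 to 0.30, limma adjusted p = 0.0440), which is 1.12-fold and was not called. Its adjusted p was above 0.05 under 8 alternatives, with 0.136 as the highest. For both of these receptors the intervals exclude a 2-fold difference in RMA value in either direction. The M0505 and STOSE means were 5.73 and 5.59 for *Notch3* and 5.24 and 5.41 for *Notch4*. The 95th percentile of the values of olfactory receptor genes, a background chosen after the data were seen, was 4.74. Whether the array signal follows the transcript level this near the background was not tested, so the intervals bound the signal only.

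Of the ligands, *Jag1* was called higher, and *Jag2* and *Dll1* were not called. *Jag1* had values of 8.48, 8.05 and 7.99 in M0505 cells and of 9.29, 9.16 and 9.17 in STOSE cells. M0505 replicate 1 was the highest of its line and still lay below every STOSE array. *Jag1* rose 2.05-fold, from 8.17 ± 0.27 (SD, n = 3) to 9.21 ± 0.07 (SD, n = 3) (log2 fold change 1.04 ± 0.12 SE, adjusted p = 0.000143 by limma). Its adjusted p stayed under 0.05 throughout, but the log2 fold change was under 2-fold without M0505 replicate 2 (0.98), without M0505 replicate 3 (0.94) and without STOSE replicate 1 (0.995).

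*Jag2* had values of 6.34, 6.61 and 6.49 in M0505 cells and of 5.86, 5.75 and 5.76 in STOSE cells, with no overlap. The log2 fold change was -0.69 (standard error 0.08, limma adjusted p = 0.000119), which is a 1.61-fold difference and under the 2-fold threshold. The within-array difference of *Jag1* minus *Jag2* was on average 1.72 higher in STOSE than in M0505 arrays (standard error 0.23). *Dll1*, the Delta-type ligand of the set, had values of 6.58, 6.43 and 6.16 against 6.52, 6.65 and 6.42. These overlapped, and the log2 fold change of 0.14 had a 95% interval from -0.12 to 0.39 (limma adjusted p = 0.322). It was 0.34 after further quantile normalization (adjusted p = 0.0225) and 0.34 after centring on the median over genes (0.0172), still under 2-fold.

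**Figure D2:**
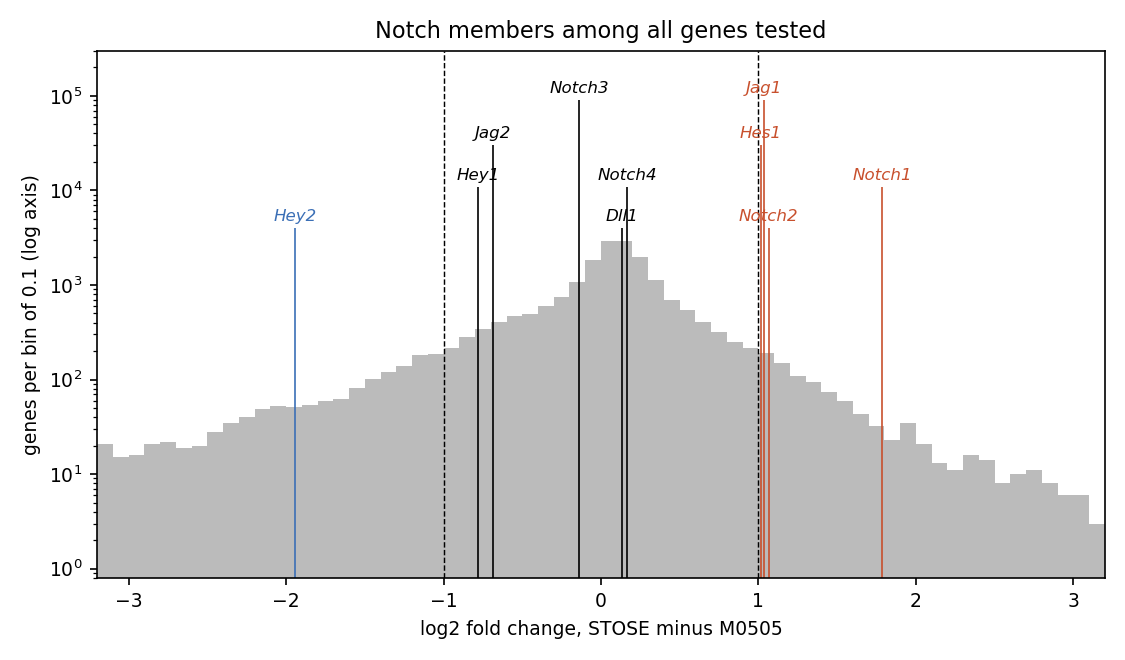
Log2 fold changes (STOSE minus M0505) of the 10 Notch genes as vertical lines over the histogram of all 20405 genes, with the count per bin of 0.1 on a log axis, cut at 3.2 on either side; dashed lines mark 2-fold, red genes were called higher and the blue gene lower. *Notch2*, *Jag1* and *Hes1* sit just past the 2-fold line, *Notch1* (1.79) and *Hey2* (-1.94) well past it.

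The target factors were split. *Hey2* had values of 6.61, 7.07 and 6.79 in M0505 cells and of 4.69, 4.99 and 4.96 in STOSE cells, and no arrays overlapped between the lines. It fell 3.85-fold, from 6.82 ± 0.23 (SD, n = 3) to 4.88 ± 0.16 (SD, n = 3) (log2 fold change -1.94 ± 0.13 SE, adjusted p = 3.97e-06 by limma), and leaving out any single array gave values between -2.05 and -1.82. It ranked 533 among the 1548 genes called lower. The STOSE mean was near the dim end of the array: the 95th percentile of the values of 1129 probe sets of olfactory receptor genes, a background chosen after the data were seen, was 4.74, and STOSE replicate 1 lay below it. The table gives no detection call.

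*Hey1*, a close relative of *Hey2*, was not called. Its values were 6.36, 6.25 and 6.30 in M0505 cells and 5.40, 5.68 and 5.50 in STOSE cells. The lines did not overlap, and the log2 fold change of -0.78 (standard error 0.08, limma adjusted p = 5.66e-05) is a 1.72-fold difference, under the threshold for a call. The within-array difference of *Hey1* minus *Hey2* was on average 1.16 higher in STOSE than in M0505 arrays (standard error 0.17). With *Hey2* near the background in STOSE cells, this too compares array signals only.

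*Hes1*, the target factor that many cell types keep at an oscillating level through its own repression, had values of 8.38, 7.61 and 7.54 in M0505 cells and of 9.78, 8.36 and 8.43 in STOSE cells. Replicate 1 was the highest in both lines, and M0505 replicate 1 lay above STOSE replicate 2, so the lines overlapped. The log2 fold change of 1.01 had a standard error of 0.38 and a limma adjusted p of 0.0496, at the edge of the threshold. The pooled SD of *Hes1* within the lines was 0.65, larger than that of 99.9% of genes, whose median was 0.092. The call was lost without M0505 replicate 2 (log2 fold change 0.90, adjusted p = 0.144), without M0505 replicate 3 (0.86, 0.147) and without STOSE replicate 1 (0.55, 0.0764). Without replicate 1 of both lines, a setting chosen after seeing these values, the difference was 0.82 with an adjusted p of 0.00011, under 2-fold.

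Differences within arrays were compared for all 12 pairs of genes of the same role. In all 12 the STOSE arrays did not overlap the M0505 arrays, which was so for 69.1% of all pairs of genes on the array, and the 12 pairs reuse the same 10 genes. Each gave the smallest p that a two-sided exact permutation test of 3 against 3 allows, 0.1, which is also 0.1 after adjustment over the 12 pairs. None can therefore pass 0.05 in this design. The largest change was that of *Hes1* relative to *Hey2*, 2.96 on the log2 scale (standard error 0.67), and the smallest was that of *Notch3* relative to *Notch4*, -0.30 (standard error 0.11).

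Around these genes, the rest of the pathway was read from 57 further genes grouped by role, all of which were found on the array, with *Neurl1b* listed as *EG240055* and *Poglut1* under an older symbol. Of these, 2 were called higher and 5 lower in STOSE cells, again against 4.9% and 7.59% of all genes. By the adjusted p alone 15 were higher and 24 lower, against 31.6% and 24.8% of all genes, and 18 did not pass. Their median log2 fold change was -0.03.

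Among the enzymes that ubiquitinate ligands and drive their endocytosis in the sending cell, both Neuralized genes were called and moved in opposite directions. *Neurl1a* had values of 8.85, 8.72 and 8.62 in M0505 cells and of 6.71, 6.80 and 7.04 in STOSE cells. It fell 3.68-fold (log2 fold change -1.88 ± 0.10 SE, adjusted p = 1.20e-06 by limma). *EG240055* (*Neurl1b*) had values of 7.97, 7.998 and 7.87 against 9.17, 9.25 and 9.22, a rise of 2.41-fold (log2 fold change 1.27 ± 0.06 SE, adjusted p = 7.61e-07 by limma). The lines were separate for both. *Mib1* and *Mib2*, the Mind bomb ligases, were not called.

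Of the genes for receptor processing, 1 was called. In the group of 10 proteolysis genes, *Aph1c*, a subunit of γ-secretase, was called lower, at 7.10, 7.49 and 7.67 in M0505 cells against 6.23, 6.30 and 6.17 in STOSE cells (log2 fold change -1.19 ± 0.13 SE, adjusted p = 8.54e-05 by limma). After centring on the median over genes it was at -0.99, under 2-fold. *Aph1b*, a close copy of *Aph1c*, was at -0.997 (standard error 0.17, limma adjusted p = 0.00123), just under 2-fold, and how far the probes of each read the other was not tested. *Adam17*, a protease that cuts at the cell surface, was at a log2 fold change of 0.52 (limma adjusted p = 6.67e-05), and *Furin*, which cuts the receptor precursor, was at -0.93 (1.44e-05), both under 2-fold. None of the 5 glycosylation genes was called. The largest difference there was that of *Lfng*, a fringe enzyme that modifies the receptor's EGF repeats, with values of 9.89, 9.95 and 9.84 against 9.16, 9.40 and 9.34 (log2 fold change -0.60, limma adjusted p = 0.000206).

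In the nucleus, *Rbpj* itself was not past the test, with a log2 fold change of 0.16 (95% interval 0.0019 to 0.32, limma adjusted p = 0.0787). *Maml2*, a Mastermind coactivator, was called lower, with values of 9.55, 9.63 and 9.58 in M0505 cells and of 8.06, 8.07 and 7.71 in STOSE cells (log2 fold change -1.64 ± 0.10 SE, adjusted p = 2.66e-06 by limma). These values are from the brighter of its 2 probe sets. Its log2 fold change lay between -1.72 and -1.33 in the alternatives that tested it at 2-fold, and its call held in all of them. *Maml3*, a relative of *Maml2*, was at 0.94 (standard error 0.11, limma adjusted p = 9.62e-05), under 2-fold. Of 11 corepressor genes, *Tle1*, a Groucho-type partner of HES proteins, was the 1 called, rising from 6.89, 6.84 and 6.68 to 7.97, 7.94 and 8.02 (log2 fold change 1.17 ± 0.07 SE, adjusted p = 2.41e-06 by limma). *Spen*, which represses RBPJ targets, was at 0.89 (adjusted p = 0.000194).

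**Figure D3:**
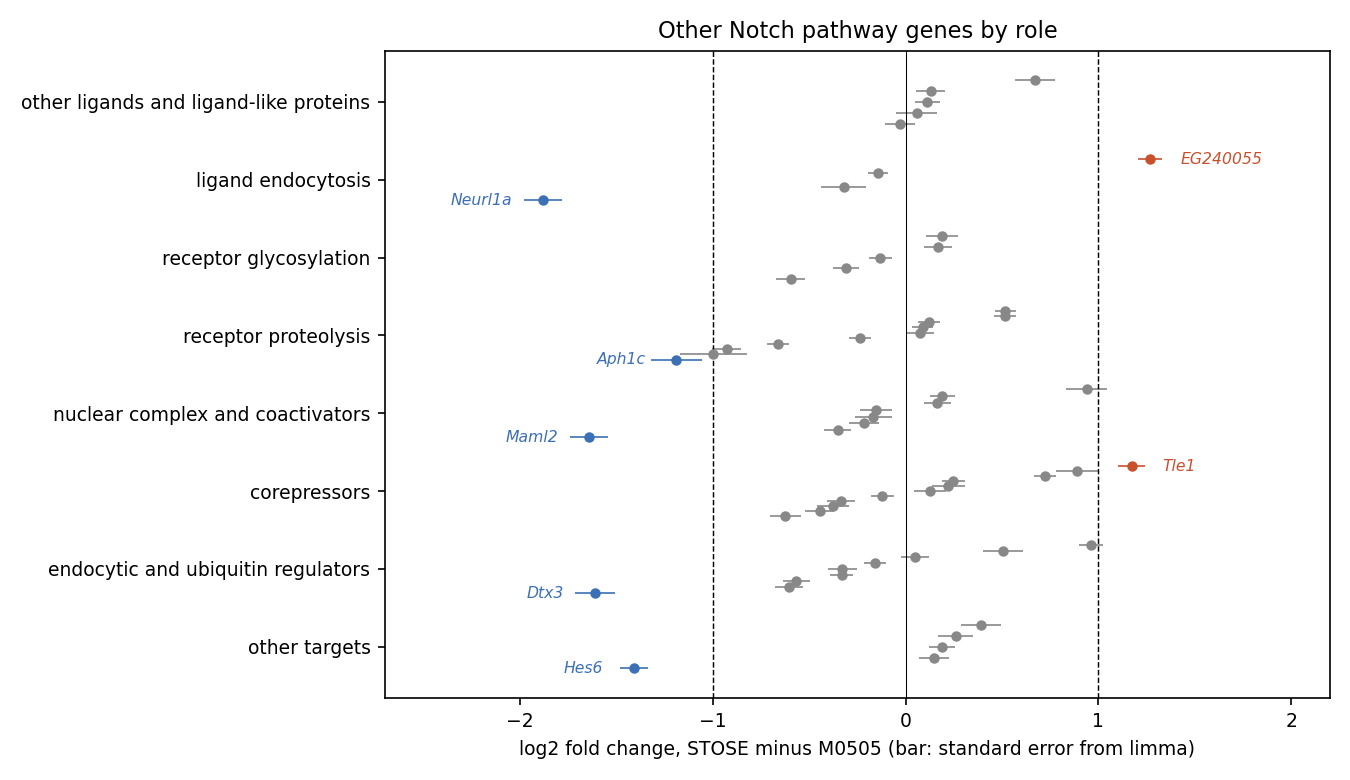
Log2 fold change (STOSE minus M0505, with the standard error from limma as a bar) of the 57 other pathway genes, grouped by role; red genes were called higher, blue genes lower, grey genes were not called, and dashed lines mark 2-fold. Most points lie within 2-fold, and the 7 called genes come from 6 of the 8 groups.

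Among 9 endocytic and ubiquitin regulators, *Dtx3*, of the Deltex family, was called lower, from 8.44, 8.66 and 8.42 to 7.07, 6.90 and 6.72 (log2 fold change -1.61 ± 0.10 SE, adjusted p = 3.31e-06 by limma). *Dtx4* was at 0.96 (standard error 0.06, adjusted p = 3.66e-06), just under 2-fold. Of the 5 genes listed as other targets, *Hes6*, whose product opposes that of *Hes1*, was called lower, from 8.65, 8.83 and 8.86 to 7.41, 7.37 and 7.34 (log2 fold change -1.41 ± 0.07 SE, adjusted p = 9.72e-07 by limma). Its place in the list does not show that Notch signaling controls it, which was not tested. The 4 others of the list were not called, among them *Nrarp* at 0.19 (limma adjusted p = 0.0418) and *Heyl* at 0.39 (0.0109). Both were dim, with M0505 and STOSE means of 4.64 and 4.83 for *Nrarp* and of 5.03 and 5.42 for *Heyl*. The M0505 mean of *Nrarp* lay under the olfactory receptor background of 4.74. No further ligand or ligand-like gene was called, and the largest difference was that of *Dlk2* at 0.67 (6.74, 6.47 and 6.39 against 7.33, 7.17 and 7.11, limma adjusted p = 0.000633).

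The genes nearest to *Notch1* over the 6 arrays, by the Euclidean distance of log2 values after each gene was centred on its own mean, were *Hmha1* (distance 0.05), *Terc* (0.13) and *Lrrfip1* (0.18). For *Hey2* they were *Agap2* (0.14), *Pcmtd1* (0.16) and *Rhbdl3* (0.16). The distance grows with the spread of a gene, which was large for *Hes1*. Its nearest genes, sought after its values were seen, were *C3ar1* (0.49), *Mmp10* (0.54) and *Neurl3* (0.55). In STOSE cells *C3ar1*, a complement receptor gene, had values of 5.81, 4.79 and 4.93, and *Mmp10*, which encodes a matrix metalloproteinase, had 7.16, 5.53 and 5.48. These genes were picked for their likeness to *Hes1* on the same arrays, so their high replicate 1 is not a separate observation. The M0505 values of *C3ar1* (4.55, 4.14 and 4.11) lay under the olfactory receptor background of 4.74.

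**Figure D4:**
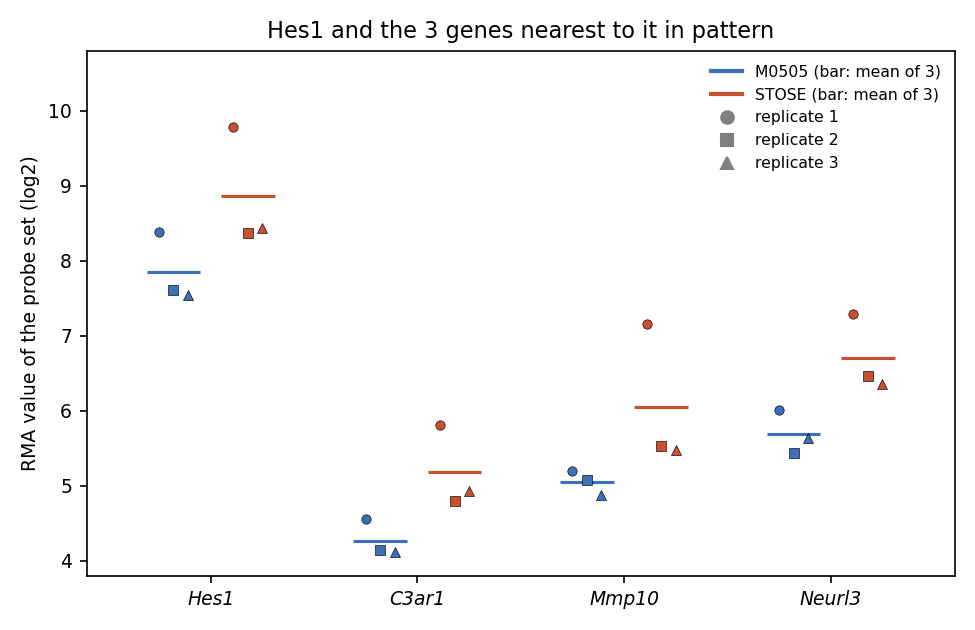
RMA values (log2) of *Hes1* and of the 3 genes closest to it over the 6 arrays, with M0505 in blue, STOSE in red, a symbol per replicate and a bar at the mean of 3. STOSE replicate 1 is the highest array for all 4 genes, a pattern for which the 3 were picked.

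Markers of the labelled tissue and of other cell types were read beside these results. Over all genes 4.9% were called higher and 7.59% lower. Of 14 markers of ovarian surface and simple epithelium, 4 were called lower in STOSE cells and 0 higher. By the adjusted p alone 11 were lower, against 24.8% of all genes. The mean log2 level of the list was 9.94 to 9.97 in M0505 arrays and 8.76 to 8.84 in STOSE arrays. *Krt8* (-4.55) and *Krt19* (-5.56) fell most. *Wt1* (-0.63, limma adjusted p = 1.96e-05) and *Upk3b* (-0.34, 0.00103) were lower by under 2-fold and stayed bright, with STOSE means of 10.76 and 11.91. *Epcam* was at 5.35 in M0505 and 4.48 in STOSE cells (limma adjusted p = 0.000206), *Cdh1* at 4.79 and 4.82, and *Lhx9* at 4.63 and 4.71, against 4.74 for the 95th percentile of the olfactory receptor values. Of 8 endothelial markers, *Kdr* was called lower (log2 fold change -5.17), and the line means of the other 7 lay between 2.99 and 5.50, with list means of 5.18 to 5.26 and 4.62 to 4.62. Of 6 pericyte and smooth muscle markers, *Acta2* was called higher (2.33) and the line means of the other 5 lay between 3.12 and 6.04, with list means of 5.50 to 5.58 and 5.87 to 5.98. *Cd68* (-2.82) was the 1 of 5 leukocyte markers called, with list means of 5.41 to 5.55 and 4.96 to 5.00. The line means of the other 4 lay between 3.79 and 5.31. *Inha* (-3.93) was the 1 of 5 granulosa markers called, with list means of 5.83 to 5.88 and 4.92 to 5.17. The other 4 had line means between 3.83 and 6.76. In each of these non-epithelial lists the mean includes the called gene. Median log2 fold changes were 0.09 for endothelium, 0.14 for pericytes and smooth muscle, 0.03 for leukocytes and -0.13 for granulosa cells. The part of these markers in the changes of the Notch genes was not tested.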

How the data were processed

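RNA of 3 M0505 and 3 STOSE samples was hybridized to 6 mouse gene arrays from Affymetrix, 1 for each sample. The authors deposited log2 values for 28944 probe sets after RMA (background correction, quantile normalization and summarization), with Affymetrix Expression Console named in the submitters' notes. The annotation release and genome build are not given in the sources used here. The table also holds the authors' mean per line and fold changes, which were not used, and 0 columns of array values were left unmatched. The 23530 probe sets with a gene symbol gave 20405 genes, each represented by its probe set with the highest mean. Arrays have no read depth, and their number limits the precision. Array medians over all probe sets lay between 5.64 and 5.68. Over the 20405 genes they were 6.46 to 6.49 in M0505 arrays and 6.25 to 6.29 in STOSE arrays.

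The lines were compared in R 4.3.3 with the moderated test of limma 3.58.1 (lmFit, eBayes) without covariates, and p-values were adjusted over all genes. The code was tested on simulated data. The genes and lists were chosen with earlier results of these data known. The genes named are the 10 Notch genes, other pathway genes that were called, the gene of largest change in each pathway group without a call, and the 3 nearest genes in pattern of the largest rise and the largest fall. Genes just under 2-fold, *Rbpj*, *Adam17*, *Aph1b*, *Nrarp*, *Heyl* and the genes near *Hes1* were added after their values were seen. List symbols and promoters were matched to RefSeq (GRCm38.p6). The alternatives were further normalization, centring, filters on dim genes, the mean of probe sets, other tests and thresholds, a replicate block and leaving out each array.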

Additional observations from a re-analysis of the deposited data

How the results depend on the processing

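Of the 19 named pathway genes, 15 kept their direction and their call in the alternatives that tested them at 2-fold, and *Notch3*, *Jag1*, *Hes1* and *Aph1c* did not. Without a change of call, the adjusted p crossed 0.05 for *Dll1* under further quantile normalization (0.0225) and centring over genes (0.0172), and for *Notch4* under 8 alternatives, among them further quantile normalization (0.0528) and the trend and robust options of limma (0.0791). Centring each array on its median over genes added 0.20 to every log2 fold change, turned *Notch3* to 0.0612, took *Aph1c* to -0.99 and raised the other pathway genes called higher from 2 to 5, while the share of higher genes among all calls went from 39.2% to 55.5%. Centring over all probe sets, added later, shifted fold changes by 0.01. With no fold threshold, 6454 genes were higher and 5066 lower, 3 Notch genes were lower (*Jag2*, *Hey1* and *Hey2*) and *Notch4* joined the higher ones, and 15 other pathway genes were higher and 24 lower. At 4-fold the counts were 186 and 509 over all genes and 0 in both Notch lists, so that *Notch1*, *Notch2* and *Hey2* also lost their calls. Without the dimmest 50% of genes, 4 of the 10 genes were still tested, and neither *Notch1* nor *Hey2* was among them. Of those tested, *Notch2*, *Jag1* and *Hes1* were called higher and 0 were called lower. *Hes1* also lost its call when limma was run with the trend and robust options (adjusted p = 0.0770) and under the methods' t-test, before adjustment (0.130) and after it (0.190). With each array left out in turn, 2 to 4 of the 10 genes were called higher, and without M0505 replicate 2, M0505 replicate 3 or STOSE replicate 1 the 2 were *Notch1* and *Notch2*. A fit with the replicate number as a block called 1001 genes higher and 1548 lower and changed no call among the named genes, with an adjusted p of 0.000721 for *Hes1* and of 0.0570 for *Notch4*, which is under 2-fold in either fit. Deviations from the line means were correlated over genes between the arrays of the 2 lines. The correlations were 0.04 to 0.26 for arrays of the same number and -0.29 to 0.12 for arrays of different numbers. STOSE replicate 2 correlated best with M0505 replicate 3 (0.12, against 0.04 with M0505 replicate 2), and every other array correlated best with its own number. The numbers were not taken as a pairing because of that 1 array. Whether arrays of the same number share a source of variation was not tested.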
